A study of Mus musculus with 36 samples.

Results

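H3K27ac peak lists of the dorsal hippocampus were compared between untreated mice given an ACSS2 knockdown vector and untreated mice given a control vector. A knockdown peak with no base in common with any control peak was called gained, and a control peak with no base in common with any knockdown peak was called lost. On the assembled chromosomes 39192 of 101690 knockdown peaks were gained, which is 38.5% of that list, and 23455 of 89935 control peaks were lost, which is 26.1%. The 95% Wilson intervals run from 38.2% to 38.8% and from 25.8% to 26.4%, and here and below they cover counting error only. These 2 lists hold part of the 546933 peaks in the 8 lists of the series, which also cover H3K9ac and ethanol-treated mice.

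The study used male mice aged 8 weeks, with 3 replicates in each of 12 groups and 36 samples in all. The groups are H3K27ac, H3K9ac and input samples for each vector, with and without ethanol. The knockdown group (ACSS2 KD) received the virus AAV2/9 with U6.shACSS2.CMV.EGFP by injection into the dorsal hippocampus. It carries a short hairpin RNA against Acss2 under the U6 promoter and a green fluorescent protein under the CMV promoter, neither of which is restricted to a cell type. The control group (Control, called WT in the lists) received a control vector, whose content the labels do not give. Untreated means that no ethanol was injected, while the ethanol-treated mice used below for comparison received 2 g per kg into the peritoneum. Mice of both vector groups had thus received a vector, and the tissue was a bulk sample. No list measures the share of its cells that the virus reached.

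H3K27ac, acetylation of histone H3 at lysine 27, is written by the acetyltransferases p300 and CBP and removed by histone deacetylases. It marks active promoters and active enhancers, and enhancer peaks lie away from gene starts and differ between cell types more than promoter peaks do. ACSS2 joins acetate to coenzyme A and so makes acetyl-CoA, the donor of acetylation, and in neurons it is found in the nucleus. The comparison asks how a lowered supply of this enzyme bears on H3K27ac in mice without ethanol. No file checks the knockdown itself, since the hairpin acts on the messenger RNA and peak lists hold no expression.

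Each list is the authors' single list for the 3 replicates of a group, so no replicate error can be attached to any value and no test was possible. Each peak has 1 score, the authors' −log10 q-value, used here only to rank or filter peaks within 1 list. Read numbers are not given for any list. How far unequal sequencing bears on the longer knockdown list was therefore not tested. The knockdown list covered 47.8 Mb and the control list 40.1 Mb, the median peak was 290 and 272 bp wide, and the median scores were 6.89 and 6.88. In bulk tissue, a change in the number of cells of a type and a change in acetylation per cell cannot be told apart.

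The promoters of 7 genes are shown first, because the results at gene starts turn on genes of these kinds. Each sequence is RefSeq's 300 bases from 250 before to 50 after an annotated start (mouse build GRCm38.p6), read 5′ to 3′ in the direction of the gene. In the first 3, genes of the interferon response, capitals mark the core of the interferon-stimulated response element (ISRE) that interferon regulatory factors bind. It was searched on both strands, overlaps allowed, as GAAA, then 2 bases of any kind, then GAAA. In the other 4, capitals mark CpG dinucleotides, whose clusters form the CpG islands of many promoters.
Ifitm3 (chr7:141010695-141010994, minus strand): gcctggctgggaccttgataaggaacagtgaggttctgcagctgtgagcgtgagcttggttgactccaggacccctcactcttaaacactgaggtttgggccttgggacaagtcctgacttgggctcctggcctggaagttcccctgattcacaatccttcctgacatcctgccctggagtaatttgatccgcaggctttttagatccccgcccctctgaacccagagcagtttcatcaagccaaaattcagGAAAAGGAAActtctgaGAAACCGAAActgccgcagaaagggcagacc
Bst2 (chr8:71537423-71537722, minus strand): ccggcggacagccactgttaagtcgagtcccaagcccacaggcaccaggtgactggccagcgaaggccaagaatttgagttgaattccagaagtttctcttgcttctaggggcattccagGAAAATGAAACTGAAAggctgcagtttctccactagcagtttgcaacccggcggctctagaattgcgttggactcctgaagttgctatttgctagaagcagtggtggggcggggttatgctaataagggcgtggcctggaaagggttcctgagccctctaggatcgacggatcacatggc
Isg15 (chr4:156200769-156201068, minus strand): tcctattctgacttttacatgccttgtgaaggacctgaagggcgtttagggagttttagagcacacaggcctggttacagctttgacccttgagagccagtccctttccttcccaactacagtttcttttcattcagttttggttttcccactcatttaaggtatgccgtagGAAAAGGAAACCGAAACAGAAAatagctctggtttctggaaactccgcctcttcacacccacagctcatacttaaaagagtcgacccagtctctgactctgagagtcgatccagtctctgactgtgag
Psd4, first of 3 annotated starts (chr2:24367425-24367724, plus strand): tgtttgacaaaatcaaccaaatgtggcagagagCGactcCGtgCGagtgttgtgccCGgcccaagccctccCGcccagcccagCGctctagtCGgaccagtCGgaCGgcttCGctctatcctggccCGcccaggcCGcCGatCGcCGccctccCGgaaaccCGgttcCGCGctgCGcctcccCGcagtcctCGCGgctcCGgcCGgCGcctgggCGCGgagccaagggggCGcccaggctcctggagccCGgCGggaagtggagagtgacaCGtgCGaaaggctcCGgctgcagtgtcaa
Pgam2 (chr11:5803747-5804046, minus strand): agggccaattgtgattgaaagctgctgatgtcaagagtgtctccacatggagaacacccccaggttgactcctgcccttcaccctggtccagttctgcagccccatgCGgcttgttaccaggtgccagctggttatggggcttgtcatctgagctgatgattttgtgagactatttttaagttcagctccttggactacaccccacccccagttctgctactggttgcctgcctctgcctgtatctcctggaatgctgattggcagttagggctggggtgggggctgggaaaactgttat
H2-Q4 (chr17:35379367-35379666, plus strand): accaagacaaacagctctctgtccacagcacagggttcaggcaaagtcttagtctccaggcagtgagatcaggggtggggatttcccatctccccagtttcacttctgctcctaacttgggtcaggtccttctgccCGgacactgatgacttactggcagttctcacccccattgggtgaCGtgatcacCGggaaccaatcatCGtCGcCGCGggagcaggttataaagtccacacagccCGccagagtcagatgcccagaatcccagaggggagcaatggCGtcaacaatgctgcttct
Diaph3 (chr14:87141175-87141474, minus strand): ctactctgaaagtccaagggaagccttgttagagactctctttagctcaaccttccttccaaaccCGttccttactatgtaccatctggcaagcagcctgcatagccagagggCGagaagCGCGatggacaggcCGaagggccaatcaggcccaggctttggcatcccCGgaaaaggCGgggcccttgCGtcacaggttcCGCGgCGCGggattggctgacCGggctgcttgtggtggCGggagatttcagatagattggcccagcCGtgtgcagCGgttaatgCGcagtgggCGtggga

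The Ifitm3 sequence holds 2 matches of the ISRE core and 5 CpG, that of Bst2 2 overlapping matches and 11 CpG, and that of Isg15 3 overlapping matches and 6 CpG. Psd4 has a CpG island with 34 CpG, Diaph3 has 18, H2-Q4 has 9 and Pgam2 has 1. The knockdown list covered 190 of the 300 bases of Psd4, 68 of Bst2 and 27 of H2-Q4 and none of the other 4 sequences. The control list covered 109 bases of Diaph3 and 25 of Isg15 and none of the other 5. At these 7 genes the 2 untreated lists shared no covered base of the printed sequences. At all but Bst2 the choice of genes fixed this, since they gained or lost a start peak. Several of the peaks described below lie inside the gene just after the printed bases.

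Gained and lost peaks were narrow and scored low in their own lists. The median width was 196 bp for gained peaks against 435.5 bp for knockdown peaks with a counterpart, and 173 bp for lost peaks against 355 bp for control peaks with one. Of the gained peaks 21.1% (20.7% to 21.5%) scored above the median of the knockdown list, and of the lost peaks 18.9% (18.4% to 19.4%) scored above that of the control list. The top 10% of the knockdown list held 10 gained peaks, and that of the control list held 1 lost peak. Only 16 gained peaks and 1 lost peak were 1 kb or wider. The strongest and widest H3K27ac peaks of the hippocampus were therefore present in both lists.

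**Figure D1:**
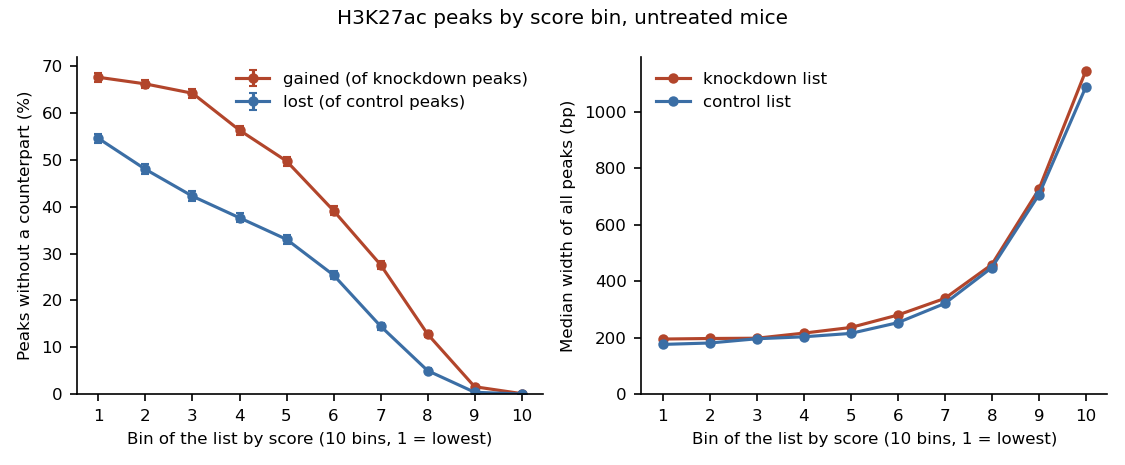
The left panel plots the percent of peaks without a counterpart (y axis) in 10 equal bins of each list by score (x axis, 1 is lowest), for the knockdown list (gained, red) and the control list (lost, blue), with 95% Wilson intervals as bars. The right panel plots the median width in bp of all peaks in the same bins. The gained share goes from 67.6% in the lowest bin to 0.0983% in the highest and the lost share from 54.6% to 0.0111%, while width climbs from 195 and 176 bp to 1146 and 1088.5 bp.

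The plot by score bin shows both shares shrinking at each step up the lists. The gained share was 49.7% in bin 5 and 12.8% in bin 8, and the lost share was 33.0% and 5.00%. Tied scores were split in genome order to fill the bins.

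Many members lay close to a peak of the other list. Of the gained peaks 15164 (38.7%) had a control peak within 500 bp and 3466 (8.84%) within 100 bp, and of the lost peaks 11651 (49.7%) and 3160 (13.5%) had a knockdown peak as near. At the other end, 6283 gained peaks and 2574 lost peaks were more than 10 kb from any peak of the other list. Just inside the rule for a shared peak, 898 knockdown peaks (1.44% of those with a counterpart) and 719 control peaks (1.08%) had under 10% of their bases covered by the other list.

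Peaks present in both lists were also broader in the knockdown list. Among 44003 pairs with 1 peak in each list, the knockdown peak was the wider in 60.9% (60.4% to 61.3%), with medians of 389 and 328 bp. Of the knockdown bases, 30.6 Mb lay in both lists, 8.94 Mb in gained peaks and 8.25 Mb at the edges of peaks with a counterpart. Of the control bases, 4.61 Mb lay in lost peaks and 4.90 Mb at such edges. The larger area in knockdown mice thus came in similar parts from gained peaks and from wider shared peaks.

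Members lay mostly away from gene starts. Here and below, starts are annotated starts for 17492 genes and both gene ends for 4395 genes without one. With a start window of 1 kb on either side, 5.83% (5.60% to 6.06%) of gained and 6.52% (6.21% to 6.85%) of lost peaks had their midpoint at a start, against 29.2% and 29.1% of the peaks with a counterpart in the same lists. Inside genes lay 67.3% of gained and 69.4% of lost peaks, and outside genes 26.8% and 24.0%. The median distance from the nearest start was 23.9 kb for gained and 21.8 kb for lost peaks, against 8.44 and 8.32 kb for peaks with a counterpart. Read the other way, 11.1% of knockdown peaks at starts were gained, against 45.8% inside genes and 44.8% outside them. Peaks at starts were also wider, with a median of 666 bp in the knockdown list against 256 bp inside genes, so position, width and score go together here and their parts were not tested apart.

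Chromosome X carried fewer members than the autosomes, with 24.5% of its knockdown peaks gained (261 of 1064) against 38.7% and 17.3% (15.1% to 19.7%) of its control peaks lost against 26.2%. Of the knockdown peaks on X, 59.0% lay at gene starts, against 19.8% on the autosomes. Away from starts the gained share was 40.8% (36.3% to 45.5%) on X and 45.5% (45.2% to 45.9%) on the autosomes.

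Lists that the rule did not use show how far the members recur in other mice. Gained peaks were found in the list of ethanol-treated knockdown mice in 51.3% of cases and in that of ethanol-treated control mice in 26.5%. That first list is the longest, with 119317 peaks, and once it was shortened to the length of the other, 86110, the shares were 37.1% (36.6% to 37.6%) and 26.5% (26.0% to 26.9%). Lost peaks gave much the same: 35.0% (34.4% to 35.6%) were found in the ethanol-treated knockdown list and 27.4% (26.8% to 28.0%) in the ethanol-treated control list at equal length. Peaks lost in untreated knockdown mice were thus found more often in the other knockdown list than in the other control list, as gained peaks were. At equal length 51.8% of gained and 52.1% of lost peaks were in neither ethanol list, against 7.88% and 8.00% of the peaks with a counterpart.

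**Figure D2:**
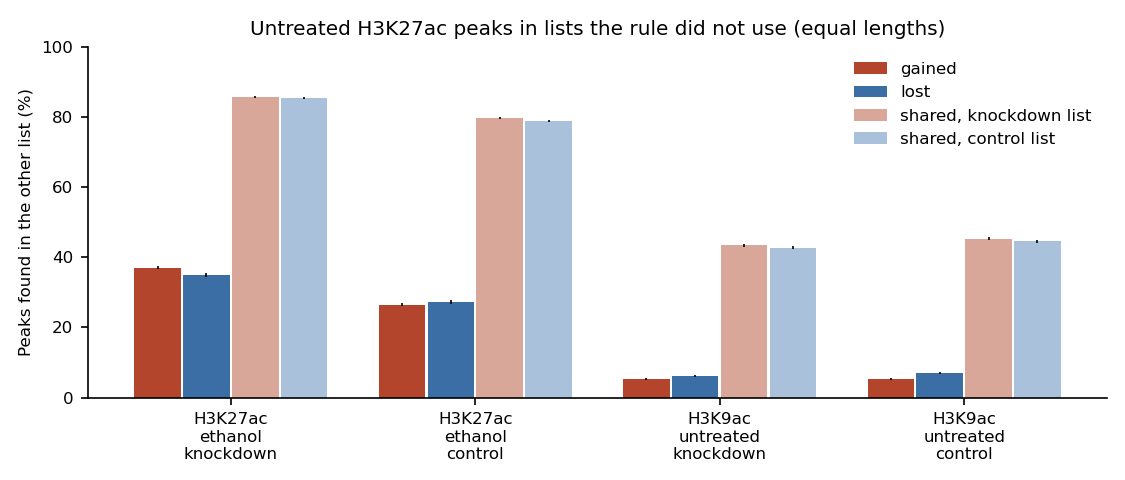
Bars give the percent of gained, lost and shared untreated H3K27ac peaks (y axis) that overlap a peak of 4 other lists (x axis), with lists of a pair shortened to equal length and 95% Wilson intervals. Gained and lost bars stand at 37.1% and 35.0% in the ethanol knockdown list and at 26.5% and 27.4% in the ethanol control list, far under the bars of shared peaks, and between 5.27% and 7.05% in the H3K9ac lists.

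H3K9ac, another acetylation mark of active promoters, was measured in the same groups. An H3K9ac peak of untreated knockdown mice overlapped 5.36% of gained and 6.14% of lost H3K27ac peaks, and one of untreated control mice overlapped 5.35% and 7.05%. For gained peaks these 2 shares differ by less than their counting error, so a gained H3K27ac peak had no larger share of H3K9ac in the knockdown list than in the control list. Lost peaks overlapped H3K9ac more often in the control list, with intervals of 6.73% to 7.38% against 5.84% to 6.45%. Among knockdown peaks with a counterpart, 43.6% overlapped an H3K9ac peak of the untreated knockdown group.

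The 6 highest-scoring gained peaks away from gene starts lay inside Mtcl1 (microtubule crosslinking, chr17:66364319-66364711), Cdk17 (a cyclin-dependent kinase, chr10:93233143-93233494), Atg4c (autophagy protease, chr4:99200814-99201384) and Vti1a (vesicle fusion, chr19:55368561-55369213), and near Gm2115 (chr7:84520622-84520862) and Cyria (chr12:12392390-12392711). Of these, 5 had a peak in the ethanol-treated knockdown list, all except the one near Cyria. Those in Mtcl1, Cdk17 and Atg4c had one in ethanol-treated control mice too. The peak in Vti1a was 51752 bp from the nearest control peak.

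The 6 highest-scoring lost peaks were near Slc26a7 (chr4:14500232-14500429), Klf7 (chr1:64021368-64021723) and Smtn (chr11:3577015-3577326) and inside Tuba1c (chr15:99034135-99034452), Galk2 (chr2:125898924-125899116) and Armc5 (chr7:128243527-128244019). Slc26a7 is an anion exchanger, Klf7 a neuronal transcription factor and Tuba1c a tubulin. All but the one in Galk2 had a peak in ethanol-treated knockdown mice, and 3 (near Klf7, in Tuba1c and in Armc5) had one in ethanol-treated control mice. The peak near Slc26a7 was 198 bp wide, lay 325476 bp from any knockdown peak and is the one lost peak in the top 10% of the control list.

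Gained and lost peaks often lay in the same neighbourhoods. Of 11577 windows of 100 kb that held either kind, 6586 held both, 3392 only gained and 1599 only lost peaks. The windows with the most gained bases were at Bcl11b, a transcription factor of cortical and dentate neurons (33 gained, 20 lost, chr12:107900001-108000000), at Abr and Timm22 (30 and 14), at Gse1 (28 and 8) and at the axon guidance receptor Unc5a (28 and 11). Those with the most lost bases were at Itpk1 (27 lost, 12 gained), the DNA methyltransferase Dnmt3a (24 and 12), Ank and Otulin (24 and 21), Septin7 (23 and 12) and Zeb2 (24 and 19). In the windows of Itpk1 and Dnmt3a the covered bases were nearly equal in knockdown and control lists (32519 and 32815 bp, 20584 and 20605 bp), so peaks there were in other places but not fewer bases.

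A window on chromosome X stood apart. At Pls3, which encodes an actin-bundling protein, chrX:75700001-75800000 held 33 peaks in untreated knockdown and 5 in untreated control mice, with 29 gained and 1 lost. In ethanol-treated mice the order was the other way, with 11 peaks in the knockdown and 28 in the control list. H3K9ac had 20 peaks there in untreated knockdown and 3 in untreated control mice, and 10 in each ethanol list. The high H3K27ac count thus falls on the knockdown list in untreated and on the control list in ethanol-treated mice, while H3K9ac was uneven in untreated mice only. Whether 1 replicate carries them cannot be told from lists without replicates.

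At gene starts the lists differed at few genes. A peak overlapped the start window of 13855 of 21887 protein-coding genes in knockdown and 13572 in control mice, and 13363 genes had one in both. A start peak was gained at 492 genes (2.25%) and lost at 209 (0.955%). Of the genes that gained one, 73.4% had a peak in ethanol-treated knockdown and 47.8% in ethanol-treated control mice. Of those that lost one, 65.1% and 43.1% did. The same gain was called between the 2 ethanol-treated groups at 161 genes, which is 32.7% of the untreated gains and 26.8% of the 600 ethanol gains (2.74% of all genes). Yet 65 genes that lost a start peak in untreated knockdown mice, 31.1% of the losses, were gains in the ethanol comparison, and 19 were losses there (133 genes, 0.608% of all).

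The gained start peaks with the highest scores were at 10 genes of mixed roles. These were Pga5 (a pepsinogen), Psd4 (an Arf exchange factor), Casr (the calcium-sensing receptor), Txlnb, 9030624G23Rik, Pgam2 (the muscle form of phosphoglycerate mutase), Poli (a DNA polymerase), H2-Q4 (a class Ib major histocompatibility gene), Card9 (an adaptor of innate immunity) and Nkpd1. Their peaks were 180 to 619 bp wide and had score percentiles of 75.7 to 82.2, so even these were not among the strongest peaks of their list. Pga5, Txlnb, 9030624G23Rik and Poli have no annotated start here, so their peaks lie near either gene end. At the CpG island of Psd4, whose sequence is shown above, the peak chr2:24367535-24367732 spans the start. Covered bases within 2 kb of its starts were 0 in untreated control, 198 in untreated knockdown, 0 in ethanol-treated control and 385 bp in ethanol-treated knockdown mice. Both knockdown lists thus held a peak and both control lists held none.

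Casr and Txlnb did not show that pattern. Casr had 319 covered bp in untreated knockdown mice and 0 in the 3 other H3K27ac lists, though H3K9ac covered 307 bp there in untreated knockdown and 0 in untreated control mice. Txlnb had 346 bp in untreated knockdown mice and 0 in the 3 others. Pgam2 (chr11:5803085-5803703) had 0 bp in untreated control, 619 in untreated knockdown, 299 in ethanol-treated control and 615 in ethanol-treated knockdown mice. H2-Q4 (chr17:35379640-35380235) had 0, 596, 569 and 718 bp in that order, so untreated control mice were the one group without an H3K27ac peak. H3K9ac went the other way there, with 459 bp in untreated control and 0 in untreated knockdown mice. Of the 10 genes, 8 had a start peak in ethanol-treated knockdown and 5 in ethanol-treated control mice.

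The lost start peaks with the highest scores were at Insrr (a receptor of the insulin receptor family), Kdm5d (the Y-linked histone H3 lysine 4 demethylase), 1700125H20Rik, Diaph3 (a formin that builds actin filaments), Plekhn1, Chrdl2, Pycard (the inflammasome adaptor ASC), Tfdp2, Npr3 (the natriuretic peptide clearance receptor) and Npff (neuropeptide FF). They were 144 to 343 bp wide, with score percentiles of 69.3 to 77.4. Insrr, Chrdl2 and Npff have no annotated start here, so their peaks lie near either gene end. Diaph3 (chr14:87140896-87141224) had 469 covered bp in untreated control, 0 in untreated knockdown, 463 in ethanol-treated control and 472 in ethanol-treated knockdown mice. Kdm5d had 273, 0, 250 and 262 bp, and Plekhn1 554, 0, 457 and 656 bp in the same order. All 10 genes had a start peak in ethanol-treated knockdown mice and 9 in ethanol-treated control mice, so untreated knockdown mice were the exception at 9 of these genes.

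**Figure D3:**
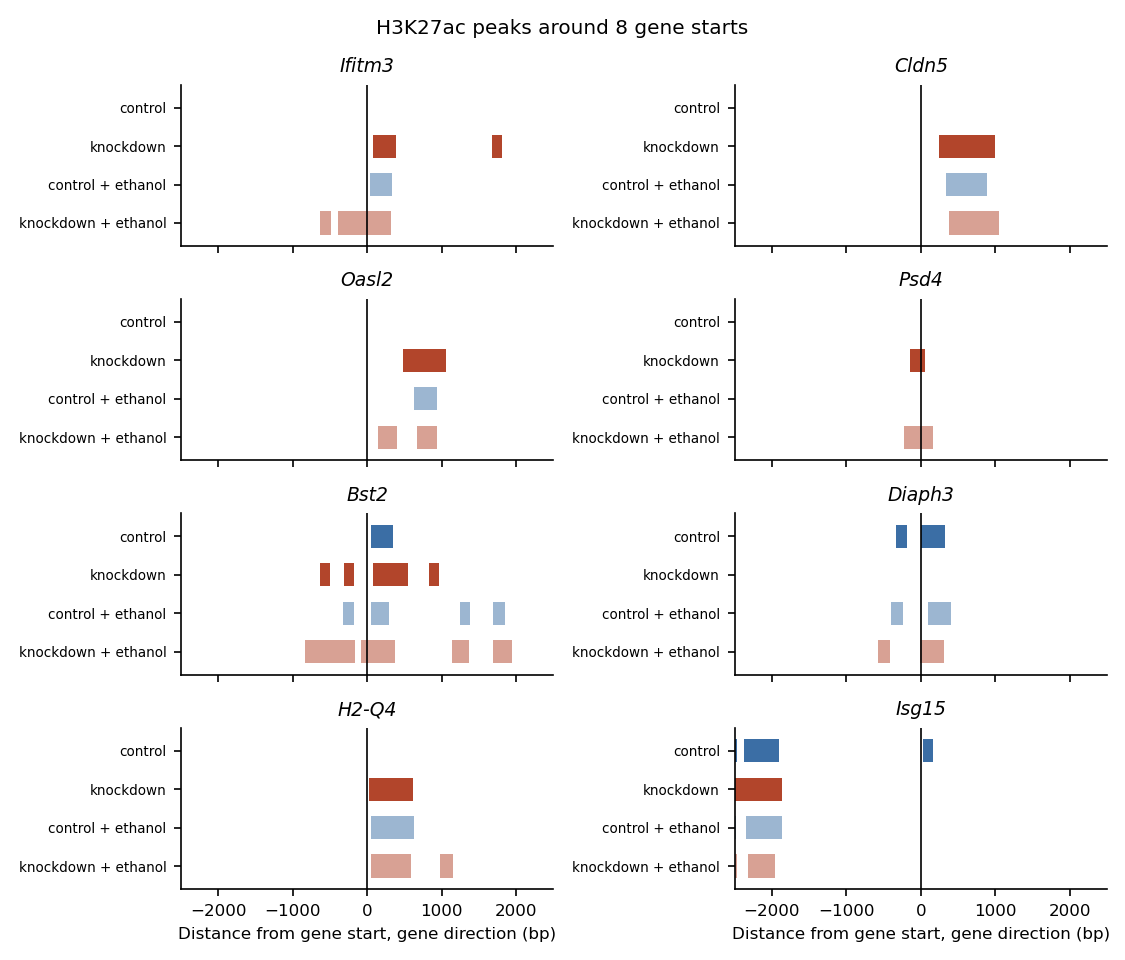
Peaks of the 4 H3K27ac lists (rows; blue for control, red for knockdown, pale for ethanol-treated) are drawn by distance in bp from the annotated start (x axis, gene direction, vertical line at 0) for 8 genes, with peaks cut at the panel edge. Within the drawn range untreated control has no peak at Ifitm3, Oasl2, H2-Q4, Cldn5 and Psd4, untreated knockdown has none at Diaph3, and the Isg15 peak next to the start is in untreated control alone.

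Covered bases give a finer measure than the presence of a peak. Counted within 2 kb of each start, 14385 genes had any covered base in the 2 untreated lists, and 64.6% of them had more in knockdown and 35.3% fewer, with a median difference of 82 bp. A gene was called higher or lower when it differed by at least 1.5 times and 300 bp. By that rule 936 genes (6.51%) were higher and 174 (1.21%) lower in knockdown mice. Between the ethanol-treated groups 81.8% had more, 2041 (14.0%) were higher and 94 (0.645%) lower. The untreated and the ethanol comparison share no sample of this mark. Genes higher in both numbered 347, which is 37.1% of the untreated and 17.0% of the ethanol calls. Genes lower in untreated knockdown mice were higher in the ethanol comparison in 54 cases, 31.0% of the 174, and lower in 11. The H3K9ac lists went the other way overall: 43.9% of 13539 genes had more covered bases in untreated knockdown and 55.9% fewer, with a median of -38 bp.

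Among the largest increases at genes with a peak in both lists were those of Nrxn2, Lrp8, Osbp2, Lgi4, Ifitm10, Elmo2, Mcf2l, Sema4d and Rab26, by 1551 to 1768 bp. Nrxn2, a presynaptic adhesion protein, had 3528 bp in untreated control, 5296 in untreated knockdown, 4041 in ethanol-treated control and 5267 in ethanol-treated knockdown mice. Lrp8, the reelin receptor ApoER2, had 4037, 5774, 4168 and 6451 bp. All 9 of these genes had more bases in knockdown mice in the ethanol comparison as well, and 7 of them had fewer H3K9ac bases in untreated knockdown mice. Lgi4, a secreted protein of myelinating glia, went from 850 to 2513 bp, the largest ratio of the 9 (2.96 times), but from 1467 to 1731 bp with ethanol.

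The 10 largest decreases were at Htra1, Ak1, Cers2, Ggt7, Trnp1, Gm40365, Rgs4, Iqsec1, Eml2 and Fbxo7, by 881 to 1293 bp. Htra1, a secreted serine protease, had 2708 bp in untreated control and 1415 in untreated knockdown mice and 2558 and 2444 with ethanol. Cers2, the ceramide synthase of very long chain myelin lipids, had 4497 and 3377 bp and 4493 and 4213 bp. Rgs4, a regulator of G protein signalling, had 1924 and 942 bp and 973 and 1453 bp. Of the 10, 5 had fewer bases in knockdown mice with ethanol too and 5 had more. Acss2 itself had 1389 bp in untreated control and 1614 in untreated knockdown mice, and 1619 and 1208 bp with ethanol, within the call limits both times.

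Genes of the interferon response mostly had more H3K27ac-covered bases in knockdown mice. Of 24 matched members 22 were covered, and 19 of them had more and 3 fewer, with a median of +296 bp against +82 bp over all genes. By the call rule 8 were higher and none lower, which is 36.4% higher against 6.51% of all genes, and 86.4% had more bases against 64.6%. They are the interferon regulatory factors Irf7 and Irf9, the antiviral membrane proteins Ifitm3 and Bst2, the exonuclease Isg20, the oligoadenylate synthetase-like Oasl2, the RNA sensor Ddx58 (RIG-I) and Xaf1. In ethanol-treated mice, 21 of 23 members had more in the knockdown, the median was +449 bp against +218 bp over all genes, and 11 were higher and none lower. Earlier results of these data were known when the list was made, so its counts describe it and test nothing.

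Single members show the sizes. Ifitm3 (chr7:141009590-141010744) had 0 bp in untreated control, 448 in untreated knockdown, 285 in ethanol-treated control and 848 in ethanol-treated knockdown mice. Its gained peak chr7:141010366-141010672 begins 72 bp after the start, downstream of the 2 ISRE cores in the sequence above, and only in ethanol-treated knockdown mice did a peak cover all 300 printed bases. Oasl2 had 0, 570, 315 and 526 bp, and Bst2 293, 878, 685 and 1614 bp in the same order. Irf7 had 384, 906, 516 and 1099 bp, and Isg20 199, 789, 0 and 1117 bp. At each of these 5 genes both knockdown values were above both control values.

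Xaf1 went from 1486 to 2372 bp but from 1887 to 1752 bp with ethanol. Isg15, the ubiquitin-like antiviral protein, was the exception among the start peaks: it lost a narrow one (chr4:156200656-156200793) and had 236, 130, 138 and 38 bp. For H3K9ac 10 members had more and 8 fewer bases in untreated knockdown mice, with a median of +22.5 bp against -38 bp over all genes. The ISRE core was present in 11 of the 20 members with a promoter in the table (55%) against 3.94% of all 17492 promoters of that length. Within the list it was present in 3 of the 8 members called higher (Ifitm3, Bst2 and Ddx58) and in 8 of the 12 others. Over all genes it was in 3.87% of promoters of genes called higher, 6.01% of those that gained and 5.73% of those that lost a start peak. A match of these letters is a description and not a binding site.

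Antigen presentation genes were covered at 15 of 18 members, with more bases at 13 and fewer at 2, a median of +311 bp and 6 called higher and none lower. That is 86.7% with more bases against 64.6% of all genes and 40% higher against 6.51%. The class I heavy chain H2-D1 had 865 bp in untreated control and 1319 in untreated knockdown mice, the light chain B2m 768 and 1314, the peptide transporter Tap2 1060 and 1684, and the immunoproteasome subunit Psmb8 582 and 893. H2-Q4, above, and the class II gene H2-Ab1 (214 and 514 bp) were the others. Tap1 and Psmb9 start back to back and share 1 window, with 1268 and 1820 bp, and are included in these counts as separate members. Counted once, they leave 12 of 14 with more and a median of +305.5 bp. Ciita, the class II regulator, lost its start peak (195 and 0 bp). With ethanol none of the list was called higher, 13 of 14 had more in the knockdown, and the median was +198.5 bp, under that of all genes. Several members, H2-Q4 (569 bp), H2-D1 (1226 bp) and H2-Ab1 (509 bp), had more in ethanol-treated than in untreated control mice. At each of these genes both knockdown values were still above both control values. At H2-K1 the ethanol-treated control value (1105 bp) was above that of ethanol-treated knockdown mice (995 bp).

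Reactive glia, complement and cytokine genes were covered at 11 of 22 members, with more bases at 9 and fewer at 2 and a median of +303 bp. That is 81.8% with more bases against 64.6% of all genes, whose median was +82 bp. By the call rule 45.5% were higher against 6.51% of all genes. Called higher were Gfap (the filament of reactive astrocytes, 370 and 1026 bp), C4b (complement, 283 and 1133 bp), Il1r1 (the interleukin 1 receptor, 620 and 1281 bp), Osmr (225 and 528 bp) and Tlr2 (0 and 309 bp), and none was lower. Gfap stood at 1563 bp in ethanol-treated control and 1712 in ethanol-treated knockdown mice, so both ethanol values were above both untreated values. With ethanol 15 of 15 covered members had more in the knockdown, against 81.8% of all genes. Of these members 3 were higher, against 14.0% of all genes, and the median was +258 bp against +218 bp. The cytokine genes Il1b, Tnf, Il6, Ccl2 and Ccl5 and the complement gene C3 were not covered in either untreated list. Nfkbia, the inhibitor of NF-kB that NF-kB induces, had 2413 and 1921 bp.

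**Figure D4:**
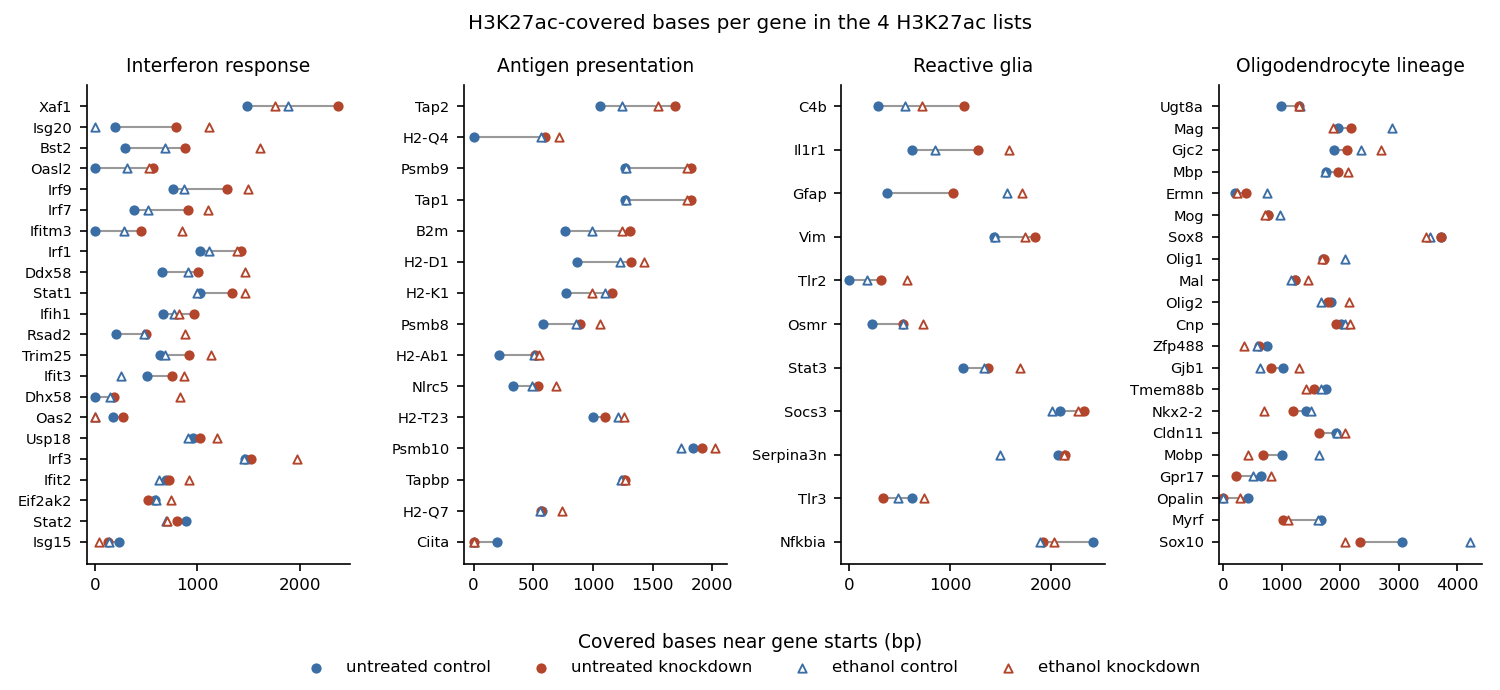
Points give the H3K27ac-covered bases (x axis, bp, within 2 kb of gene starts) of each covered member (rows, ordered by the untreated difference) of 4 gene lists in untreated control (blue dots), untreated knockdown (red dots), ethanol control (blue triangles) and ethanol knockdown mice (red triangles), with a line between the untreated values. In the interferon panel 19 of 22 red dots lie to the right of the blue dots, and in the oligodendrocyte panel 12 of 21 lie to the left.

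Markers of cell types that could carry such genes were measured beside them. The microglia and macrophage list was covered at 8 of 22 members, 4 with more and 4 with fewer bases. That is 50% with more bases, against 64.6% of all genes. Its summed bases were 9731 in untreated control and 9086 in untreated knockdown mice. Without Apoe, which astrocytes also express, the sums were 7088 and 7106 bp. For the full list within 5 kb of the starts, 10 of 12 covered members had more, 4 were higher and the median was +177.5 bp. Over all genes at 5 kb, 10010 of 15001 had more, 1171 were higher and the median was +109 bp. Its defining markers Cx3cr1, Tmem119, Trem2, Tyrobp, C1qa, C1qb, C1qc, Itgam and Ptprc were at 0 in both lists, and P2ry12 lost its start peak (149 and 170 bp). Irf8, which interferon also induces, was the one member called higher (437 and 809 bp). That is 12.5% of those covered, against 6.51% of all genes. The endothelial and mural list was covered at 10 of 22, with 7 more and 3 fewer, a median of +295.5 bp and sums of 5901 and 8912 bp. The share with more bases, 70%, was near the 64.6% of all genes, whose median was +82 bp. By the call rule 40% were higher and 10% lower, against 6.51% and 1.21% of all genes. Cldn5, the tight junction protein of the blood-brain barrier, gained a peak (0, 741, 547 and 680 bp in the 4 lists), Esam went from 230 to 1277, Tagln from 180 to 676 and Kdr from 770 to 1196 bp, while Notch3 lost its peak (469 and 0 bp). Pecam1, Cdh5, Tek and Tie1 were at 0 in both lists. The part of these markers in the interferon and antigen presentation counts was not tested. A 0 here says only that no peak lay in the window used, since the housekeeping gene Ywhaz was also at 0.

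Oligodendrocyte lineage genes were the list with the lowest median, -83 bp, with 9 of 21 covered members having more and 12 fewer bases. That is 42.9% with more bases, against 64.6% of all genes. Called lower were Myrf, the myelin regulatory factor (1672 and 1017 bp), Opalin (417 and 0 bp) and Gpr17, a receptor of oligodendrocyte precursors (642 and 226 bp), and none was higher. The lower share was 14.3%, against 1.21% of all genes, of which 6.51% were higher. Sox10 had 3060 and 2336 bp. Myrf, Gpr17, Sox10 and Mbp were counted at both gene ends. Myelin genes were on both sides, with Mbp at 1757 and 1962, Mag at 1962 and 2190, Mobp at 1000 and 678 and Cldn11 at 1935 and 1636 bp. Ermn gained a start peak (195 and 396 bp), and Opalin and Gpr17 lost theirs. With ethanol the median was -19 bp, against +218 bp over all genes, and Sox10 stood at 4211 and 2086 bp. Of 23 members covered there, 4 were higher and 5 lower in the knockdown, against 14.0% and 0.645% of all genes. H3K9ac was lower as well in untreated knockdown mice, at 14 of 21 members with a median of -234 bp against -38 bp over all genes, with Sox10 at 1779 and 451 bp.

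Astrocyte markers had more bases at 8 and fewer at 11 of 19 covered members, with a median of -35 bp. That is 42.1% with more bases, against 64.6% of all genes, whose median was +82 bp. Even so, 4 were called higher: Gfap, which is in both lists, the calcium-binding S100b (630 and 1090 bp), Ntsr2 (884 and 1382 bp) and the glutamate transporter Slc1a2, which gained a peak (0 and 326 bp). These calls are 21.1% of the covered members, against 6.51% of all genes. Aldh1l1 gained and Acsbg1 lost a start peak, and Hes5 (2220 and 1587 bp) and Apoe (2643 and 1980 bp) had fewer bases without meeting the 1.5-fold limit. With ethanol 18 of 20 members had more in the knockdown and the median was +463 bp, against 81.8% and +218 bp over all genes. Under each of the 5 other settings tried, 2 astrocyte members were called higher. The untreated median turned to +111 bp at 5 kb and +220 bp over whole genes, where those of all genes were +109 and +168.5 bp.

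Neuronal lists lay on both sides of the median of all genes, +82 bp. Over all genes 64.6% had more bases, 6.51% were higher and 1.21% lower. Excitatory neuron markers had more bases at 15 of 18 covered members with a median of +148.5 bp, but only Neurod6 was called higher (144 and 777 bp). Inhibitory neuron markers had more at 7 and fewer at 5 of 12, with Npy gaining a peak (0 and 387 bp), Reln losing one and the transcription factor Maf called lower (1720 and 970 bp). Presynaptic release genes had a median of +51.5 bp, with Nrxn2 the 1 higher and Nrxn3 (1621 and 1062 bp) the 1 lower call. Voltage-gated channel genes had +19.5 bp, with Scn3a and Cacna1h higher, and Cacna1h and Scn1a gaining start peaks.

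Glutamate receptor and postsynaptic density genes were covered at all 32 members, with 24 having more and 8 fewer bases, a median of +224 bp, and 7 higher and none lower. Over all genes 64.6% had more bases and 6.51% were higher, against 75% with more in this list. Only 3 were higher at a limit of 2 times or over whole genes, and 1 was lower at a score of at least 5. The higher members were the NMDA receptor subunits Grin2c (819 and 1513 bp) and Grin2d (412 and 753 bp), the kainate subunit Grik1 (160 and 581 bp), the metabotropic receptors Grm4 (1081 and 1794 bp) and Grm5 (868 and 1637 bp), the scaffold Shank2 (0 and 524 bp) and the AMPA receptor auxiliary subunit Cacng8 (783 and 1667 bp). The last 2 gained a start peak. The main subunits of these receptors in hippocampal pyramidal cells stayed within the call limits, with Gria1 at 1946 and 2116, Gria2 at 2666 and 2607, Grin1 at 1752 and 1420 and Grin2b at 2016 and 2322 bp. GABA signalling genes had a median of +198 bp with 1 higher, the extrasynaptic receptor subunit Gabrd (1788 and 2862 bp), and Gabra3 gained a peak.

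Activity and memory genes were close to all genes in start peaks and, within 2 kb, in the share with more bases, but less so in the median change. Every one of the 28 immediate early genes had a start peak in both lists, 19 had more and 9 fewer bases, and the higher calls (2 of 28, against 6.51% of all genes) were Atf3 (1001 and 2181 bp) and Maff (831 and 1698 bp). Over all genes, 98.5% of those with a control start peak had one in knockdown mice too, and 64.6% had more bases against 67.9% here. Fos stood at 2099 and 2588, Arc at 4863 and 5727 and Egr1 at 3387 and 3225 bp. In the learning and memory list Bdnf had 4014 and 4871 bp, none was higher, and Rapgef4 was lower (1797 and 1182 bp). The median was +145.5 bp for immediate early genes and +52.5 bp for the memory list, against +82 bp over all genes. At 5 kb these medians were +347.5 and +205 bp against +109 bp over all genes. Over whole genes they were +444 and +659 bp against +168.5 bp.

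Genes of acetyl-CoA, acetate and ethanol metabolism had more bases at 18 and fewer at 4 of 22 covered members, with a median of +131 bp. That is 81.8% with more bases against 64.6% of all genes, whose median was +82 bp. By the call rule 9.09% were higher and 4.55% lower, against 6.51% and 1.21% of all genes. Acss3, a mitochondrial relative of ACSS2, gained a start peak (0 and 343 bp untreated, 0 and 287 bp with ethanol), so both knockdown lists held it and neither control list did. Aldh1b1, an aldehyde dehydrogenase, was higher (373 and 716 bp) and the thiolase Acat1 lower (1126 and 649 bp). Acly, which makes acetyl-CoA from citrate, had 1931 and 1791 bp and Acss1 1803 and 1826 bp. Histone acetylation writers, erasers and readers had peaks at all 28 members, with 23 more, 5 fewer and a median of +230.5 bp. The share with more bases was 82.1%, against 64.6% of all genes. Kat2a (1401 and 2174 bp) and Hdac6 (331 and 806 bp) were higher, and these calls, 7.14% of the members, are near the 6.51% of all genes. The H3K27 acetyltransferases themselves went opposite ways but stayed within the call limits, Ep300 with 2269 and 2854 bp and Crebbp with 1916 and 1483 bp.

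**Figure D5:**
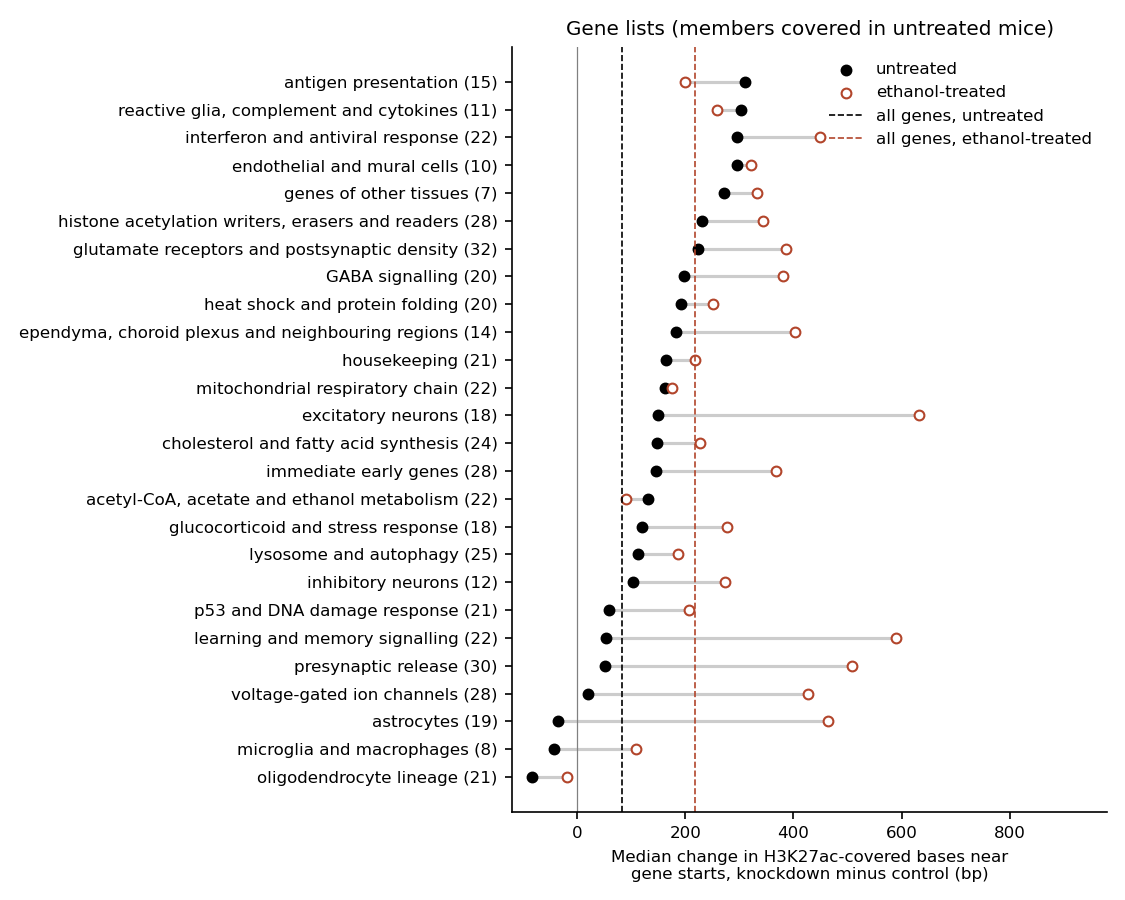
Dots give each list's median change in H3K27ac-covered bases, knockdown minus control (x axis, bp), in untreated (black) and ethanol-treated mice (open), with the number of covered members in parentheses and dashed lines at the median of all genes (82 and 218 bp). Untreated medians are above 0 in 23 of 26 lists and lowest for the oligodendrocyte lineage at -83 bp.

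Lists of other kinds are set beside them. Housekeeping genes had more bases at 15 and fewer at 5 of 21 covered members, with 1 higher (B2m, also an antigen presentation gene) and a median of +165 bp, which is above the median of all genes. That is 71.4% with more bases, against 64.6% of all genes. Genes of other tissues were covered at 7 of 29 members, with a median of +271 bp. Of the 26 lists, 23 had a positive median and 19 one above that of all genes. The medians of the interferon, antigen presentation, reactive glia and endothelial lists, +295.5 to +311 bp, are the highest 4 of the 26 with the 2 kb window. The order depends on the setting: over whole genes the voltage-gated channel (+970 bp) and glutamate (+882 bp) lists were highest, at 5 kb immediate early genes (+347.5 bp) were above the interferon list (+329.5 bp), and at a score of at least 5 inhibitory neurons (+302 bp) were highest. Mitochondrial respiratory chain genes, cholesterol and fatty acid synthesis genes and heat shock genes had no member called either way, with medians of +162, +147.5 and +192 bp. Of the lysosome list Tfe3 was higher, of the p53 list Ccng1 and Chek2, and of the ependymal and neighbouring region list Drd1 (643 and 1174 bp).

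In the glucocorticoid and stress list 3 of 20 members gained a start peak, against 2.25% of all genes. No member was called higher in covered bases. They were Crh (corticotropin-releasing hormone, 0 and 213 bp), its binding protein Crhbp (0 and 199 bp) and Hsd11b1, which regenerates active glucocorticoid (0 and 181 bp). Ethanol-treated control and knockdown mice had 167 and 444 bp at Crh, 140 and 222 bp at Hsd11b1 and 0 bp in both at Crhbp. The glucocorticoid targets Fkbp5 (1458 and 1583 bp), Sgk1 (6590 and 6326 bp) and Per1 (4621 and 4441 bp) stayed within the call limits, and Sult1a1 was lower (1665 and 936 bp).

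Promoter sequence differed with peak class. The median number of CpG in the 300 bases was 22 at genes with a peak in both lists, 9 at genes that gained one, 7 at genes that lost one and 3 at genes with a peak in neither list. Genes that gained or lost a start peak thus lay between the other 2 classes on this measure. The sequences shown above cover that range, from 34 CpG at Psd4 to 1 at Pgam2.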

How the data were processed

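The lists come from chromatin immunoprecipitation sequencing for H3K27ac and H3K9ac. The authors deposited 1 peak list per group, with an FDR of 0.001 and a comparison with input given in the lists' own names. Tools named in the submitters' processing notes are MACS2, STAR 2.5.2a, bcl2fastq and bedtools, with the build GRCm38/mm10. The deposited score of each peak was read as a −log10 q-value, since no value is under 3. How the 3 replicates were joined, and the reads per library, are not given in the sources used here.

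Overlap of at least 1 base was counted on assembled chromosomes with Python 3.11.15, numpy 2.4.6, pandas 2.3.3 and scipy 1.17.1, and figures were drawn with matplotlib 3.10.9. Gene starts were those of the RefSeq GRCm38.p6 promoter table for 17492 genes and both gene ends for 4395 genes without an entry there. A start peak lay within 1 kb of a start, and covered bases were counted within 2 kb. The 26 lists held 627 entries. Of the interferon list 24 of 26 genes were matched, without Mx1 and Mx2. Named genes were the 10 start peaks with the highest score among gained and among lost, the 10 largest increases and decreases of covered bases among genes with a peak in both lists, in each list the members that gained or lost a peak and the 4 with the largest change, Acss2, and 6 distal peaks and 5 windows of 100 kb of each kind. Other list members named, among them the remaining called ones, were chosen after their values were seen. One gene of the named set is not reported here. Members and lists were chosen with earlier results of these data known. Counting was tested on simulated data. Alternatives were other overlap, score, length, window, merging and fold settings.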

Additional observations from a re-analysis of the deposited data

Results flagged for a closer look

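Several differences had the opposite sign in ethanol-treated mice, where knockdown and control were compared in the same way. None of these differences between treatments was tested, since each group has 1 list. Npr3 lost a start peak in untreated knockdown mice but had 807 more covered bp in the knockdown with ethanol. Among the genes with the largest decreases in untreated mice, the knockdown had more covered bases with ethanol at Ak1 (by 1190 bp), Trnp1 (by 643 bp), Rgs4 (by 480 bp), Eml2 (by 324 bp) and Ggt7 (by 213 bp).

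The median change of the astrocyte list went from -35 bp without ethanol to 463 bp with it, and that of the microglia and macrophage list from -43 to 108 bp. That of all genes also rose, from 82 to 218 bp. Outside the comparison, the untreated knockdown list held 170 peaks on sequences that are not assembled chromosomes, against 163 in the untreated control list.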

How the results depend on the processing

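No paired analysis was possible because the lists carry no replicate values, and for the same reason leaving out each replicate could not be run.

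Counts of peaks depended on the rule. Gained peaks numbered 24028 when a control peak within 500 bp counted as a counterpart, 24955 at a score of at least 5, 8198 above the median score and 23653 after merging peaks within 500 bp. Lost peaks numbered 11804, 2789 and 14362 with the 500 bp gap, above the median score and merged. Gained minus lost was 15737, and 6968 at a score of at least 5, 4527 at equal list length, 5409 above the median score and 9291 merged, so gains outnumbered losses under each. At a start window of 2 kb, 11.1% of gained and 12.6% of lost peaks lay at starts. Genes gaining or losing a start peak stayed within 1.5 times of the counts given under every alternative run.

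Over all genes, 1698 were higher with the whole gene counted and 456 at 2 times. Lower genes numbered 310 at a score of at least 5 and 80 at 2 times, and the median change was 168.5 bp over whole genes. Oligodendrocyte lineage genes had 2 higher and 1 lower over whole genes, 6 lower at a score of at least 5 and 5 at equal length, and medians of -153 (5 kb), -1 (whole gene), -197 (score) and -152 bp (equal length). Higher calls were 5 for interferon and 2 for antigen presentation genes at 2 times and 3 for reactive glia at a score of at least 5, while 1 interferon gene (score) and 1 antigen presentation gene (5 kb) became lower. The sign turned for microglia (177.5 bp at 5 kb, 174 over whole genes, 39 at the score limit), astrocytes (111 at 5 kb, 220 over whole genes), voltage-gated ion channels (-8 at equal length) and genes of other tissues (-31 at the score limit).

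When an overlap of 50% was needed, gained peaks were found in 40.5% (ethanol knockdown), 17.7% (ethanol control), 3.56% and 3.59% (H3K9ac, knockdown and control) of cases and lost peaks in 38.5%, 19.2%, 4.24% and 5.15%. At equal length the ethanol knockdown shares were 37.1% and 35.0%. The cause of these shifts was not tested. Unknown depth limits every count, since the knockdown list is longer.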
